A study of Mus musculus with 2 samples.

Results

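Ucp1 and a pair of cytochrome c oxidase subunits used as thermogenic markers, Cox8b and Cox7a1, were followed in inguinal white fat, a subcutaneous depot of the mouse. They were chosen by symbol from the authors' table of probes higher in H4-TG mice, so 3 probes (transcript clusters) of the 35556 on the array are described, 1 for each gene. The groups were wild-type (WT) mice and H4-TG transgenic mice, all male, about 8 weeks old, fed normal chow at room temperature. RNA of 4 animals per genotype was pooled onto 1 mouse gene array. The labels state neither what H4 stands for nor which promoter or cell type drives the transgene. With 1 array per genotype there is no spread between replicates: every value below is a description of these arrays, no test was run, and the number of arrays limits the precision. In whole tissue, more cells of a type and more RNA per cell cannot be told apart.

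Ucp1 encodes the uncoupling protein of the inner mitochondrial membrane, which lets protons return to the matrix without making ATP, so that respiration yields heat. It is the defining gene of brown adipocytes and of the beige adipocytes that can arise in inguinal fat. Cytochrome c oxidase is the last complex of the respiratory chain and passes electrons to oxygen. Several of its nuclear-encoded subunits exist in a broadly expressed form and a form of heart, skeletal muscle and brown fat. Cox7a1 and Cox8b are of the latter kind, so both brown adipocytes and muscle fibres express them, whereas muscle is known to hold little Ucp1 RNA.

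In the authors' deposited table, whose genome build is not stated, the Ucp1 cluster (10573152) lies on chromosome 8 from 85814251 to 85822351. The Cox8b cluster (10569008) lies on chromosome 7 from 148084841 to 148086322, and the Cox7a1 cluster (10551836) on the same chromosome from 30969190 to 30971049, 117113791 bases away. These positions span 8101, 1482 and 1860 bases, and the table does not divide them into exons, introns or UTRs. Of the 12 protein-coding genes that flank the 3 genes in RefSeq order (GRCm38), 2 on each side, 0 were in the authors' table. The table held 2.44% of all probes, so a count of 0 is near that share and says little about the loci. The nearest neighbours were Tbc1d9 and Elmod2 for Ucp1, Psmd13 and Nlrp6 for Cox8b, and Zfp146 and Capns1 for Cox7a1. A gene not listed has no value here.

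Because the 3 genes were higher together, the 250 bases before each RefSeq gene start are shown, 5′ to 3′ on the gene's strand (RefSeq, GRCm38.p6). Capitals mark matches to the motifs searched on both strands. Ucp1 is at chr8:83290098-83290347, plus strand, Cox8b at chr7:140900447-140900696, minus strand, and Cox7a1 at chr7:30183921-30184170, plus strand.
Ucp1: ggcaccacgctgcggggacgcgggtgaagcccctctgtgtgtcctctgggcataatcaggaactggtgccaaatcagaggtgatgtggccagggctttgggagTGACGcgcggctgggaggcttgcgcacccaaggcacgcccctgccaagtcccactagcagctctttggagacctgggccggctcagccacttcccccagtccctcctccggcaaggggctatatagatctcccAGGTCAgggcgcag
Cox8b: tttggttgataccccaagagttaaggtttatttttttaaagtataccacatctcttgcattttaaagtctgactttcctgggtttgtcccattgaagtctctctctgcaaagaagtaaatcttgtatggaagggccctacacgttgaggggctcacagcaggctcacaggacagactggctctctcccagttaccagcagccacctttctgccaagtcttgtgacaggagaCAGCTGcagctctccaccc
Cox7a1: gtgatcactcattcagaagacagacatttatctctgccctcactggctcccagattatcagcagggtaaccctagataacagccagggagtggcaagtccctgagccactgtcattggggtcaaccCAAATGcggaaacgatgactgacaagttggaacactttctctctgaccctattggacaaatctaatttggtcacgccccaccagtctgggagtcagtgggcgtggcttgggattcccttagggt

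The motifs searched were the cyclic AMP response element TGACGTCA and its core TGACG, the nuclear receptor site AGGTCA, the estrogen-related receptor site TCAAGGTCA, the E-box CANNTG and its MyoD-type form CAGCTG, the TATA box TATAAA, the MEF2 motif, a direct repeat bound by PPAR, and the NRF1 motif. TGACG lies within TGACGTCA, AGGTCA within TCAAGGTCA and within the direct repeat, and CAGCTG within CANNTG. Ucp1 held TGACG 147 to 143 bases before the start, which 17.8% of the 32851 windows of this length in the table also hold, and AGGTCA 14 to 9 bases before it, which 14.0% hold. Cox8b held CAGCTG 19 to 14 bases before the start (13.0% of windows). Cox7a1 held an E-box of another form 124 to 119 bases before it; 66.2% of windows hold an E-box of any form. No motif was shared by all 3 windows. The full cyclic AMP element (1.55% of windows), TCAAGGTCA (0.387%), TATAAA (12.4%), MEF2 (3.20%), the direct repeat (0.0335%) and NRF1 (3.74%) were found in 0 of the 3 windows. The windows differed in base composition, with 64.8% G or C for Ucp1, 47.2% for Cox8b and 51.2% for Cox7a1 against a median of 52.4% over the table. A match is a description of the letters in the window. The known brown fat enhancer of Ucp1 lies further upstream than this window.

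Ucp1 had a log2 signal of 6.97 in the WT pool and 8.35 in the H4-TG pool. The difference, H4-TG minus WT, was 1.38, or 2.60-fold. Within the WT array Ucp1 stood above 59.9% of all probes, not far from the array median, and within the H4-TG array above 82.2%. Its distance from the array's own median was 0.63 in WT and 2.04 in H4-TG. Ucp1 was therefore between the quartiles of all probes in wild-type fat and above the upper quartile, 7.82, in the transgenic pool.

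Cox8b had a log2 signal of 10.31 in WT and 11.10 in H4-TG, a difference of 0.79 or 1.73-fold. It was among the bright probes on both arrays, above 96.1% of probes in WT and 98.1% in H4-TG. Counted from the brightest probe, it stood at rank 1403 in WT and 660 in H4-TG.

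Cox7a1 had a log2 signal of 8.38 in WT and 9.16 in H4-TG, a difference of 0.78 or 1.72-fold. It stood above 81.4% of probes in WT and 90.4% in H4-TG. Both oxidase subunits thus started from a high place on the WT array and moved up by nearly the same amount, 0.0085 apart on the log2 scale. The Ucp1 difference was 0.59 larger than that of Cox8b and 0.60 larger than that of Cox7a1. Places within an array depend on each probe's own binding and do not compare the genes in molecules.

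**Figure D1:**
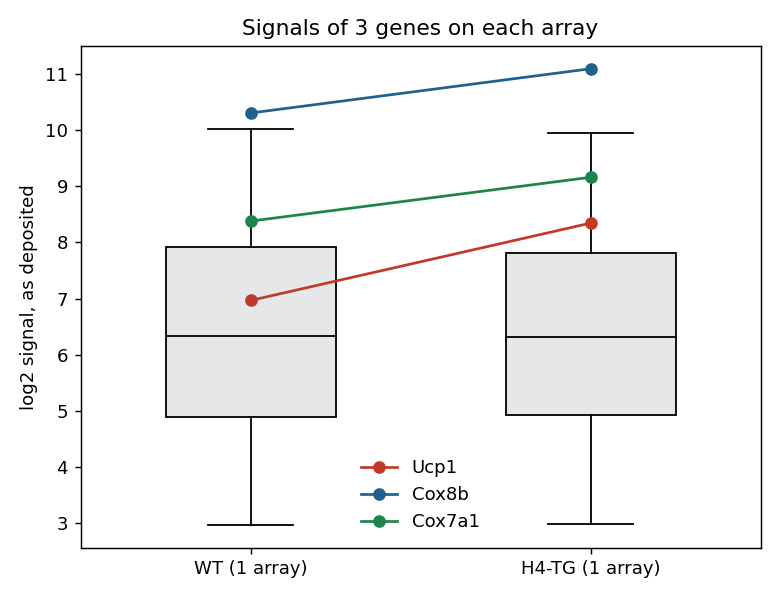
Log2 signal, as deposited, of Ucp1, Cox8b and Cox7a1 on the WT and the H4-TG array (points joined by a line per gene). Boxes span the quartiles of all 35556 probes of each array with the median as a line, and whiskers run from the 5th to the 95th percentile; Ucp1 lies inside the box in WT (6.97) and above it in H4-TG (8.35), while Cox8b lies above the whisker on both.

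These differences chose the genes and support nothing by themselves. Over all 35556 probes the median difference was -0.01 (quartiles -0.24 and 0.20), and 1518 probes (4.27%) were at least 1.5-fold and 317 (0.892%) at least 2-fold higher in H4-TG. The authors' table held 869 probes (2.44%), with no fold ratio under 1.5, so all 3 genes were at least 1.5-fold higher by selection. The lowest of the 3, Cox7a1, lay at 1.72-fold, and only Ucp1 exceeded 2-fold. Ucp1 stood at rank 126 of all probes by difference, Cox8b at 632 and Cox7a1 at 644.

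The spread of differences can vary with signal, so each gene was also set beside probes within 0.5 of its own mean log2 signal. For Ucp1 there were 5476 such probes, with a median difference of -0.10 and a central 90% from -0.63 to 0.42; 16 of them, Ucp1 included, had a difference as high. Among the 835 probes as bright as Cox8b the central 90% ran from -0.56 to 0.42, and 4 were as high. Among the 3655 probes around Cox7a1 it ran from -0.59 to 0.39, and 24 were as high. Each gene thus stood in the upper tail at its own signal level, which its place in a table of higher probes already implies.

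**Figure D2:**
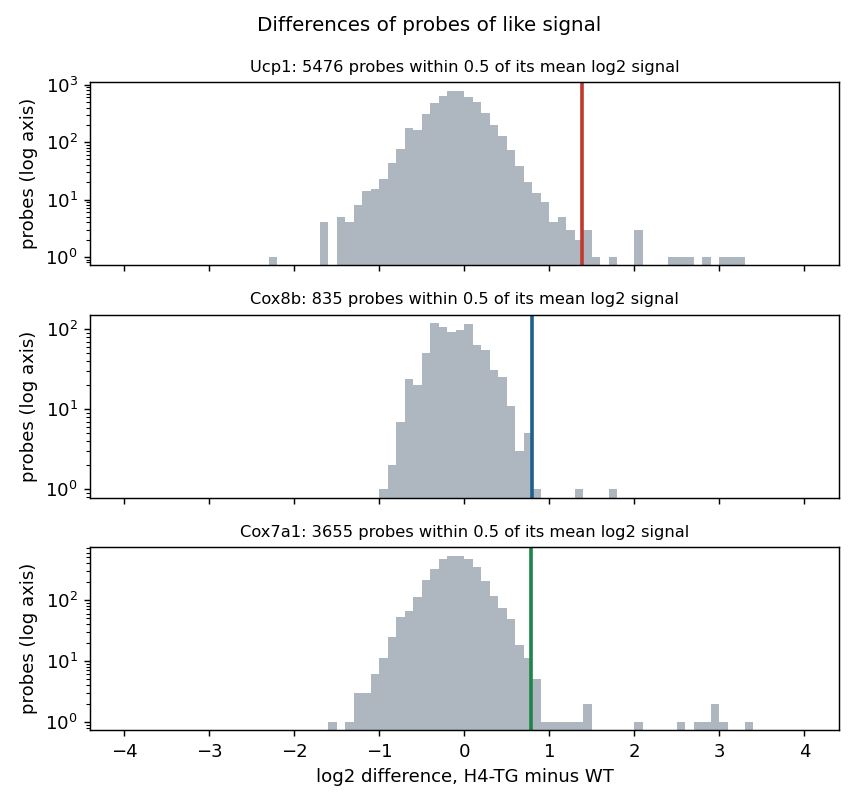
Histograms of the log2 difference, H4-TG minus WT, of the probes within 0.5 of the mean log2 signal of Ucp1, Cox8b and Cox7a1 (counts on a log axis), with the gene's own difference as a vertical line. The lines lie at 1.38, 0.79 and 0.78, to the right of the bulk of each histogram.

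Cytochrome c oxidase has further subunits, and of 22 subunit genes looked up, 3 were in the authors' table. They were Cox7a1, Cox8b and Cox6a2, the heart and muscle form of subunit 6a. Cox7a1 and Cox8b were there by selection, so Cox6a2 alone came from the look-up, and a single further gene says little about the subunits as a set. Cox6a2 had a log2 signal of 7.11 in WT and 7.96 in H4-TG, a difference of 0.85 or 1.81-fold. The 3 listed subunits differed by 0.78 to 0.85, and each is a form of heart, muscle and brown fat. The 800 named genes of the table, all chosen at 1.5-fold or more, had quartiles of 0.63 and 0.85, so closeness of this kind comes with the choice. Their broadly expressed counterparts Cox6a1, Cox7a2 and Cox8a were not listed, nor were Cox4i1, Cox5a, Cox5b, Cox6c or the mitochondrially encoded mt-Co1, mt-Co2 and mt-Co3. None of the 18 assembly factors of the complex looked up, such as Sco1 and Surf1, was listed, and none of 31 genes of the other respiratory complexes and ATP synthase. Against the 2.44% of all probes in the table, counts of 0 in lists of this size are near the background. The table held 849 (79.6%) of the 1066 probes at least 1.5-fold higher within its range of identifiers, so absence from it does not place a gene below 1.5-fold.

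Of 11 uncoupling proteins and related mitochondrial carriers, Ucp1 alone was in the table. Ucp2, which is broadly expressed, and Ucp3, the form of skeletal muscle and brown fat, were not, nor was Slc25a4, the ADP/ATP carrier of heart and muscle. Of 26 genes of Ucp1 control, 2 were listed. The table held 2.44% of all probes, and Ucp1 was itself chosen from it. Counts this small therefore say little about either list, and the values below describe single genes. Ppara, a nuclear receptor that activates fatty acid oxidation genes, had a log2 signal of 7.32 in WT and 8.04 in H4-TG (1.65-fold). Prkar2b, a regulatory subunit of protein kinase A, went from 10.71 to 11.30 (1.51-fold). The beta-adrenergic receptor Adrb3 and the coactivator Ppargc1a, which act upstream of Ucp1, were not listed.

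The wider thermogenic list had 7 of 41 genes in the table, which held 2.44% of all probes. Of these 7, Ucp1, Cox8b and Cox7a1 were there by selection, and the list was chosen with earlier results of these data known. The median difference of the 7 was 0.79, which is the value of Cox8b itself, against 0.71 over the 800 named genes of the table. Apart from the 3 genes and Ppara, the listed genes were Pdk4, Slc27a2 and Fabp3. Pdk4, a kinase that switches off pyruvate dehydrogenase, had a log2 signal of 10.08 in WT and 10.86 in H4-TG (1.71-fold). Slc27a2, a fatty acyl-CoA ligase, went from 5.80 to 6.71 (1.88-fold). Fabp3, the fatty acid-binding protein of heart and muscle, had 2 probes. The brighter, which the authors place on chromosome 10, went from 5.94 to 6.84 (1.87-fold). The other went from 5.23 to 6.48, a difference of 1.25 (2.39-fold). Whether both probes read Fabp3 was not tested. By the brightest probe of each gene, Ucp1 was the only 1 of the 7 past 2-fold, but Fabp3 was also past 2-fold by its other probe. Of the 800 named genes of the table, 120 were at least 2-fold higher, so 1 of 7 is near that share. Of 13 genes that define brown and beige adipocytes beside Ucp1, 0 were listed: Cidea, a lipid droplet protein, Dio2, which activates thyroid hormone, Prdm16, Ppargc1a, Elovl3, Ebf2, Otop1, Kcnk3, Letmd1, Tmem26, Tbx1, Zic1 and Lhx8. With 2.44% of all probes in the table, 0 of 13 is near the background share.

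**Figure D3:**
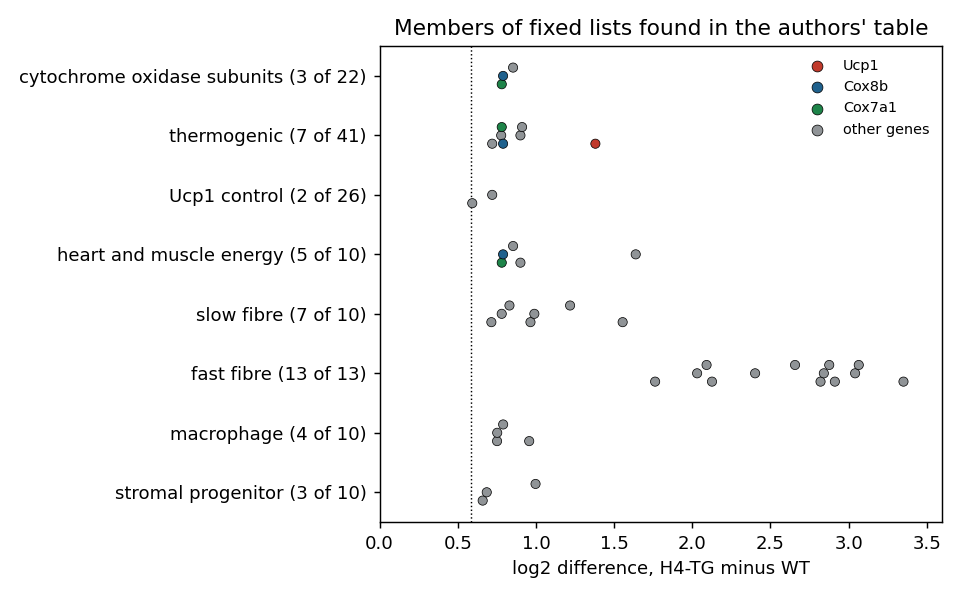
Log2 difference, H4-TG minus WT, of each list gene found in the authors' table (1 point per gene, its brightest probe; list names give found and looked-up genes). The dotted line marks 1.5-fold, the lower limit of that table; Ucp1 lies at 1.38 (the dimmer Fabp3 probe, at 1.25, is not drawn), and the fast fibre genes lie between 1.76 and 3.35.

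Skeletal muscle genes were higher on the same array, and muscle expresses Cox8b, Cox7a1 and Cox6a2. Of 35 muscle genes, 34 were in the table, 28 of them at least 2-fold higher, with a median difference of 2.29 (4.88-fold). Tnnt1 was the gene not listed. Over all probes, 2.44% were in the table and 0.892% were at least 2-fold higher. The muscle list was chosen with earlier results of these data known, so its counts are a description and no independent support. The median difference over the 800 named genes of the table was 0.71. The linear signals of the 34 summed to 4774 in WT and 25830 in H4-TG, a ratio of 5.41 that weights bright probes most. The lowest of the 34 in WT was the slow myosin light chain Myl2, at a log2 signal of 4.44. In all, 18 lay above the array median in WT and 30 in H4-TG.

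By the brightest probe of each gene, the largest differences on the muscle list were those of the calcium buffer parvalbumin (Pvalb, 3.35), the calcium release protein triadin (Trdn, 3.08 by the brightest of its 7 probes, the others from 1.01 to 2.95) and fast troponin T (Tnnt3, 3.06). Titin (Ttn) had 2.74 by its brightest probe, and its other probes had 3.20 and 0.76. The smallest were those of Tcap (0.66), a titin-binding protein, and of the slow-fibre genes Myl3 (0.71) and Tnni1 (0.78). The 13 fast-fibre genes were all listed, with a median difference of 2.82, and 7 of 10 slow-fibre genes were, with a median of 0.97 and a range of 0.71 to 1.55. The table held 2.44% of all probes, and both lists were chosen with earlier results of these data known. Each fast-fibre gene is also on the muscle list and so is counted there already. The lists differed in signal: the median log2 signal in WT was 5.40 for the listed slow-fibre genes, 6.98 for the fast-fibre genes and 8.38 for the oxidase subunits. Whether signal level bears on the differences was not tested. By difference, the oxidase subunits at 0.78 to 0.85 were within the range of the slow-fibre genes and below each fast-fibre gene. That place was not particular to slow fibres. The listed macrophage markers (0.75 to 0.96) and stromal progenitor markers (0.66 to 1.00) had ranges that also held these values. Of the listed muscle genes, 27 had a larger difference than Ucp1 and 31 a larger one than Cox8b and Cox7a1.

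For each of the 3 genes, the listed muscle gene with the closest WT signal is given beside it. These are signals of different probes, and all were taken from a table of higher probes. Tnnc2, fast troponin C, had 6.98 in WT, close to the 6.97 of Ucp1, but 9.38 in H4-TG, a difference of 2.40 against 1.38. Atp2a1, the calcium pump of fast fibres, had 8.16 in WT against 8.38 for Cox7a1, and 11.20 in H4-TG, a difference of 3.04 against 0.78. Myl1, a fast myosin light chain, had 9.76 in WT against 10.31 for Cox8b, and 11.53 in H4-TG, a difference of 1.76 against 0.79; this was the least close of the 3 matches. The part of muscle RNA, and that of beige adipocytes, in the values of Ucp1, Cox8b and Cox7a1 was not tested, and with 1 pool per genotype dissection and genotype cannot be told apart.

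**Figure D4:**
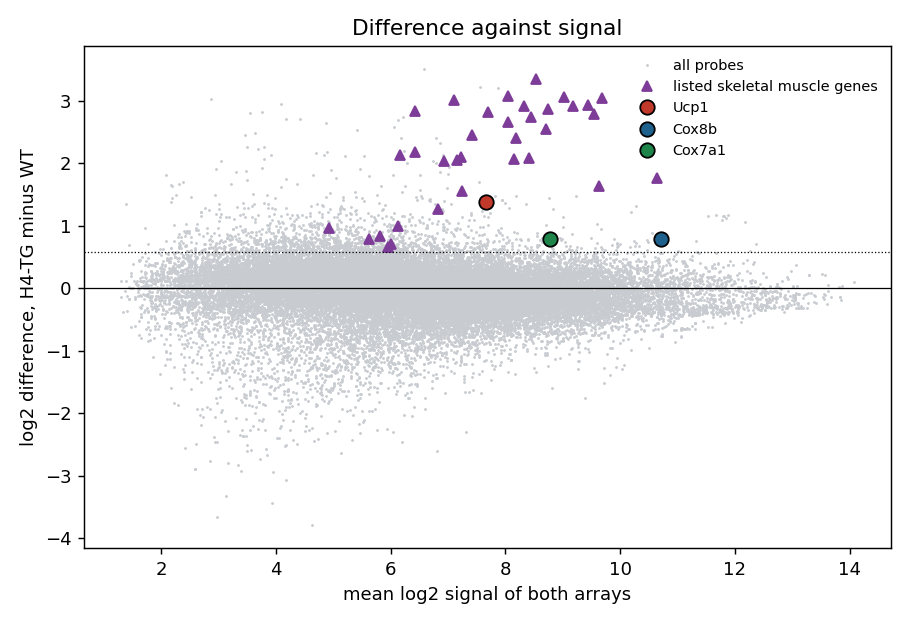
Log2 difference, H4-TG minus WT, against the mean log2 signal of both arrays for all 35556 probes (grey), the 34 listed skeletal muscle genes (triangles) and Ucp1, Cox8b and Cox7a1 (circles). The dotted line marks 1.5-fold; most triangles lie above Ucp1 at 1.38, and all 3 circles lie above the bulk of probes of their signal.

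A list of heart and muscle genes of mitochondrial energy supply had 5 of 10 genes in the table, among them Cox7a1 and Cox8b by selection, with a median difference of 0.85. Beside the 3 oxidase subunits and Fabp3, which is a cytosolic protein, it held Ckmt2, the mitochondrial creatine kinase of muscle, at 5.01 in WT and 6.65 in H4-TG (3.11-fold). Of 14 genes of creatine and calcium cycling, which have been described as heat sources in beige fat that do not need Ucp1, 4 were listed: Ckmt2, Ckm (6.94-fold), Ryr1 (4.29-fold) and Atp2a1 (8.23-fold). Each of these 4 is also a gene of skeletal muscle. Ckb, Alpl, Gatm, Ryr2 and Atp2a2, which beige adipocytes are known to use in these cycles, were not listed and so have no value here. The table held 2.44% of all probes, and both lists were chosen with earlier results of these data known.

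Other cell types were looked up in the same table. Of 10 macrophage markers 4 were listed (median difference 0.77), as were 3 of 10 stromal progenitor markers (0.69) and 1 of 20 white adipocyte genes, Agt (0.72). The defining adipocyte genes Adipoq, Fabp4 and Plin1 were not in the table of higher probes and have no value, so the labelled tissue could not be checked against them. The endothelial, lymphocyte, nerve and skin lists had 0 of 8, 0 of 8, 0 of 7 and 0 of 6 genes listed. The table held 2.44% of all probes, so the counts of 0 and the 1 of 20 are near that share. The macrophage and stromal counts were above it, in lists chosen with earlier results of these data known. The listed macrophage markers ran from 0.75 to 0.96 and the stromal markers from 0.66 to 1.00, and the median over the 800 named genes of the table was 0.71.

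The named genes whose pair of signals lay nearest to each of the 3 genes were found by Euclidean distance over the log2 signals of the 2 arrays. Nearest to Ucp1 were Sfrp2, a secreted Wnt modulator (7.04 in WT, 8.20 in H4-TG, distance 0.16), Ak1, the adenylate kinase abundant in muscle (7.08 and 8.56, distance 0.24), the calcium channel subunit Cacna2d1 (distance 0.26), the paraoxonase Pon1 (0.28) and the receptor Adgrd1 (0.29). Nearest to Cox8b were Gpx8, a peroxidase of the endoplasmic reticulum (distance 0.31), Pdk4 (0.33), the fatty acid transporter Slc27a1 (10.15 in WT, 10.77 in H4-TG, distance 0.36), Prkar2b (0.44) and the amino acid transporter Slc7a10 (0.55). Nearest to Cox7a1 were the apolipoprotein Apoc1 (8.39 and 9.13, distance 0.03), the chemokine Ccl6 (0.07), the LIM protein Fhl1 (0.11), the secreted protein Fstl1 (0.14) and the sulfotransferase Chst1 (0.16). With a pair of values per gene, nearness in this plane is a likeness in signal and difference on these arrays alone. By difference, Ucp1 stood at rank 58 of the 800 named genes, with 27 listed muscle genes among the 57 above it, Cox8b at rank 264 and Cox7a1 at 271.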

How the data were processed

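RNA extracted with Trizol was pooled from 4 animals per genotype and biotin-labelled for a mouse gene array, per the labels' protocols. The authors deposited a log2 signal for each of 35556 probes on both arrays. The submitters' processing notes name MAS5 without settings, and no source states whether the arrays were scaled to each other. The authors' analysed table of 869 probes holds, per the file headers, bi-weight average log2 signals for H4TG and CON with their linear fold ratio. All 869 pairs lay within 0.005 of the H4-TG and WT columns of the value table.

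Gene names came from that table alone. Of its rows, 822 had 1 symbol, and 47 with several were not used. Symbols were updated through RefSeq (GRCm38): an accession matched 746 rows, a symbol 46 and a synonym 10, while 20 kept the file's name, giving 800 genes, each represented by its brightest probe. All 3 genes matched a RefSeq promoter.

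The value reported is the difference of the deposited log2 signals, H4-TG minus WT, with no filter on low values. The 3 genes and the 19 gene lists (252 genes) were chosen with earlier results of these data known. Named were the 3 genes, all listed members of the thermogenic, oxidase, respiratory chain, uncoupling, Ucp1 control and muscle energy lists, the 3 largest, 3 smallest and signal-matched muscle genes, and the 5 nearest genes of each. Members of other lists, named as examples, were chosen after their values were seen. Alternatives were median centring, quantile normalization, centring along mean signal (lowess, span 0.3), the authors' signals, other probe choices and other probes to rank against. The scalings were tested on simulated data. Python 3.11.15, numpy 2.4.6, pandas 2.3.3, statsmodels 0.14.6 and matplotlib 3.10.9 were used.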

Additional observations from a re-analysis of the deposited data

How the results depend on the processing

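The differences of Ucp1 (1.38 to 1.48), Cox8b (0.79 to 0.90) and Cox7a1 (0.78 to 0.88) were lowest as deposited or in the authors' deposited table and highest under quantile normalization or centring along mean signal. The gap between Ucp1 and Cox8b kept between 0.58 and 0.59, and that between Ucp1 and Cox7a1 between 0.59 and 0.60. Of 50 comparisons of a value with its alternative, 43 moved by at most 0.1 on the log2 scale or 5 percentile points. Part of that count was fixed in advance. Median centring cannot change a gap between genes, and the authors' signals lay within 0.005 of the deposited ones. Centring along mean signal gave 0.90 for Cox8b and 0.90 for the thermogenic median, which is the Cox8b value counted again. Averaging a gene's probes put the muscle median at 2.15, and the 13 genes of no other list had 2.45. Ranked only against probes of the authors' table, Ucp1 stood at percentile 83.7 in WT and 87.2 in H4-TG, and Cox7a1 at 93.6 in WT; these are other sets of probes by construction. All genes come from a table of higher probes, so that no sign turned is no evidence of stability. No paired analysis was possible because there is 1 array per genotype, and no array could be left out.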

Other observations

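Beyond the lists, table rows whose description names mitochondria were looked up after their values were seen. Tst, the mitochondrial thiosulfate sulfurtransferase, had a log2 signal of 8.21 in WT and 8.87 in H4-TG (1.58-fold). A mitochondrial ribosomal protein pseudogene, Gm15760, went from 5.37 to 6.01 (1.57-fold). With Ucp1, Ckmt2 and the 3 oxidase subunits these made 7 rows.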
